A study of Rattus norvegicus with 8 samples.

Results

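The inhibitors of cyclin-dependent kinases (CDKs) are the proteins that hold back the engine of the cell cycle, and their genes are Cdkn2a, Cdkn2b, Cdkn2c and Cdkn2d of the INK4 family and Cdkn1a, Cdkn1b and Cdkn1c of the CIP/KIP family. Their levels were compared between young and aged CD9-positive testis cells of the rat on one-colour Agilent expression arrays. The rule used gene symbols and no measured value, taking every non-control probe whose accession matched one of the 7 symbols in the rat RefSeq gene table, and the set was proposed with earlier results of these data known. They made up 7 of the 15154 named genes and 10 of the 30367 non-control probes. All 7 genes and all 10 probes passed the filter on dim probes, which left 10236 genes and 11950 probes, and each of the 10 probes was well above background on all 8 arrays with no saturated spot.

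The 8 arrays formed 2 groups of 4, called young (rats 4 months old) and aged (rats 21 months old). All animals were Sprague-Dawley rats with a green fluorescent protein transgene specific to germ cells, and the cells of both groups were obtained by flow sorting with an antibody to CD9. CD9 is a surface tetraspanin that spermatogonia carry, the dividing germ cells among which the stem cells are found, and it is known from other testis cells too. The promoter of the transgene and a gate on its fluorescence were not given in the sources used here. Each array was labelled from 18 ng of total RNA. The labels do not say whether arrays came from separate animals or from pools, so the p-values reflect only how much these samples varied, in part perhaps for technical reasons.

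The INK4 proteins bind the kinases CDK4 and CDK6 and keep D-type cyclins from activating them, so that the retinoblastoma protein stays unphosphorylated and E2F factors stay silent. The CIP/KIP proteins bind cyclin-CDK complexes more widely, above all those of CDK2. Cdkn2a, which encodes p16INK4a and, from another reading frame, ARF, is the classic marker of cellular senescence. Cdkn1a encodes p21, a main effector of arrest after DNA damage. In the testis, Cdkn1b (p27) is known for restraining division of Sertoli cells, and Cdkn2c and Cdkn2d (p18 and p19) for the exit of male germ cells from division.

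The genes Cdkn2a, Cdkn2b and Cdkn2c lie on chromosome 5 of the rat, and their promoters are shown because Cdkn2a and Cdkn2b lie close together there and Cdkn2b and Cdkn2c were the members with the largest differences on the array. Between Cdkn2a and Cdkn2b the RefSeq table lists 1 coding gene, LOC134479006. Each window runs from 250 bases before to 50 bases after the start of transcription as RefSeq gives it on the assembly GRCr8, on the minus strand in each case, and is printed 5′ to 3′ with GC boxes (GGGCGG on either strand) in capitals. The windows are chr5:109107907-109108206 for Cdkn2a, chr5:109134806-109135105 for Cdkn2b and chr5:129644842-129645141 for Cdkn2c.
Cdkn2a: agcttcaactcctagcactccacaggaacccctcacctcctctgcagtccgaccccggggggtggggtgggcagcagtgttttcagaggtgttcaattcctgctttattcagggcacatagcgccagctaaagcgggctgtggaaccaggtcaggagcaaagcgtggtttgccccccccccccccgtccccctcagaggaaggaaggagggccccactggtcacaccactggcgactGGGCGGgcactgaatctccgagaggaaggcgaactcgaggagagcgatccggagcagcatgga
Cdkn2b: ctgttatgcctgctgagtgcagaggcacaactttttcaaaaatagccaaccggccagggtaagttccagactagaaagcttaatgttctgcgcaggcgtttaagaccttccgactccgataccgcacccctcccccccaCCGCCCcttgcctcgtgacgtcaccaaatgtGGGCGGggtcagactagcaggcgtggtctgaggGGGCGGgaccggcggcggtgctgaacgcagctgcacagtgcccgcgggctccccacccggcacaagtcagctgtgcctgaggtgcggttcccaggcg
Cdkn2c: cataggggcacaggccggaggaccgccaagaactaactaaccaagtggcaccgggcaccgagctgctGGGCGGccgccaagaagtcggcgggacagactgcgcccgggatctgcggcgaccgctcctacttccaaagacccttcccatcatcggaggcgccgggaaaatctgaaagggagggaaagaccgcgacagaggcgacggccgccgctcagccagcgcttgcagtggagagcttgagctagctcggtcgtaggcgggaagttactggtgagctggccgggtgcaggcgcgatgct
The Cdkn2b window held 3 GC boxes and 21 CpG dinucleotides at 62.3% GC. The Cdkn2a window, also at 62.3% GC, held 1 GC box and 13 CpG, and the Cdkn2c window held 1 GC box and 29 CpG at 65.3% GC. Of the other members, the Cdkn2d window held 5 GC boxes, the Cdkn1b window 1 and the Cdkn1a window 0, and the table held no window for Cdkn1c. A GC box stood in 33.1% of the 33465 promoter windows of the table, whose median was 51.7% GC with 7 CpG. The CCAAT box (CCAAT, either strand) stood in 37.5% of all windows and, of the 6 members with a window, in Cdkn1b, with 2 matches. None of the 6 windows held a TATA box (TATAAA), an E2F word (TTTCCCGC, TTTCGCGC, TTTGCCGC or TTTGGCGC) or the FOXO word GTAAACA on either strand. These words stood in 14.2%, 2.14% and 3.78% of all windows. A match is a description of the letters in the window only.

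Values are log2 processed signals minus the 75th percentile over the probes of the same array, so that 0 is a bright probe and each unit is a doubling. That percentile lay between 326 and 524 intensity units, with 63.0% to 72.0% of an array's probes well above background. The number of arrays, 4 against 4, limits the precision. One array stood apart. The mean correlation of young replicate 1 across genes was 0.966 with the other young arrays and 0.987 with the aged arrays, whereas the other young arrays correlated at 0.983 to 0.985 with their own group and at 0.958 to 0.974 with the aged group. By this measure it went against its label, which was used as given, and whether the label is right was not tested. The array was kept, and the values without it stand beside the members and the lists. All arrays were on 1 slide, the young in one row and the aged in the other row, so position and age cannot be told apart. Of 13 markers of undifferentiated spermatogonia with a named probe, 12 passed the filter, among them Zbtb16, Gfra1 and Nanos2 on all 8 arrays, while Id4 was well above background on 4 young and 2 aged arrays.

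None of the 7 CDK inhibitor genes passed the test between aged and young cells (limma, Benjamini-Hochberg adjusted p under 0.05), where 67 of 10236 genes, or 0.655%, did. Of these 67, 51 were higher and 16 lower (6 and 952 of 958 with spike-in scaling), and the count fell to 1 without young replicate 2 and to 0 without any one of young replicates 3 and 4 and the aged arrays. By the probe that stood for each gene, 4 members were higher and 3 lower in aged cells, with a median log2 difference of 0.20 (aged minus young) against 0.105 over all genes tested, of which 6493 were higher and 3743 lower. The nearest to the threshold was Cdkn2b, which encodes p15INK4b, at 0.45 ± 0.10 (SE, n = 4 per group, limma adjusted p = 0.0561). It was the only member whose groups did not overlap on that probe, a pattern seen in 14.3% of the genes tested. Cdkn2c, Cdkn1c and Cdkn2b had an unadjusted p under 0.05, as did 31.4% of all genes. Without young replicate 1, 4 of the 7 members were called, 3 higher (Cdkn2b, Cdkn1c and Cdkn2a) and 1 lower (Cdkn2c), in a fit that called 36.9% of all genes, and the median of the members was then 0.25 against 0.169 over all genes. Scaled to spike-in RNA, where the median of all genes moved from 0.105 to −0.35, Cdkn2a, Cdkn2b, Cdkn2d and Cdkn1c turned to −0.25, −0.00091, −0.21 and −0.025.

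**Figure D1:**
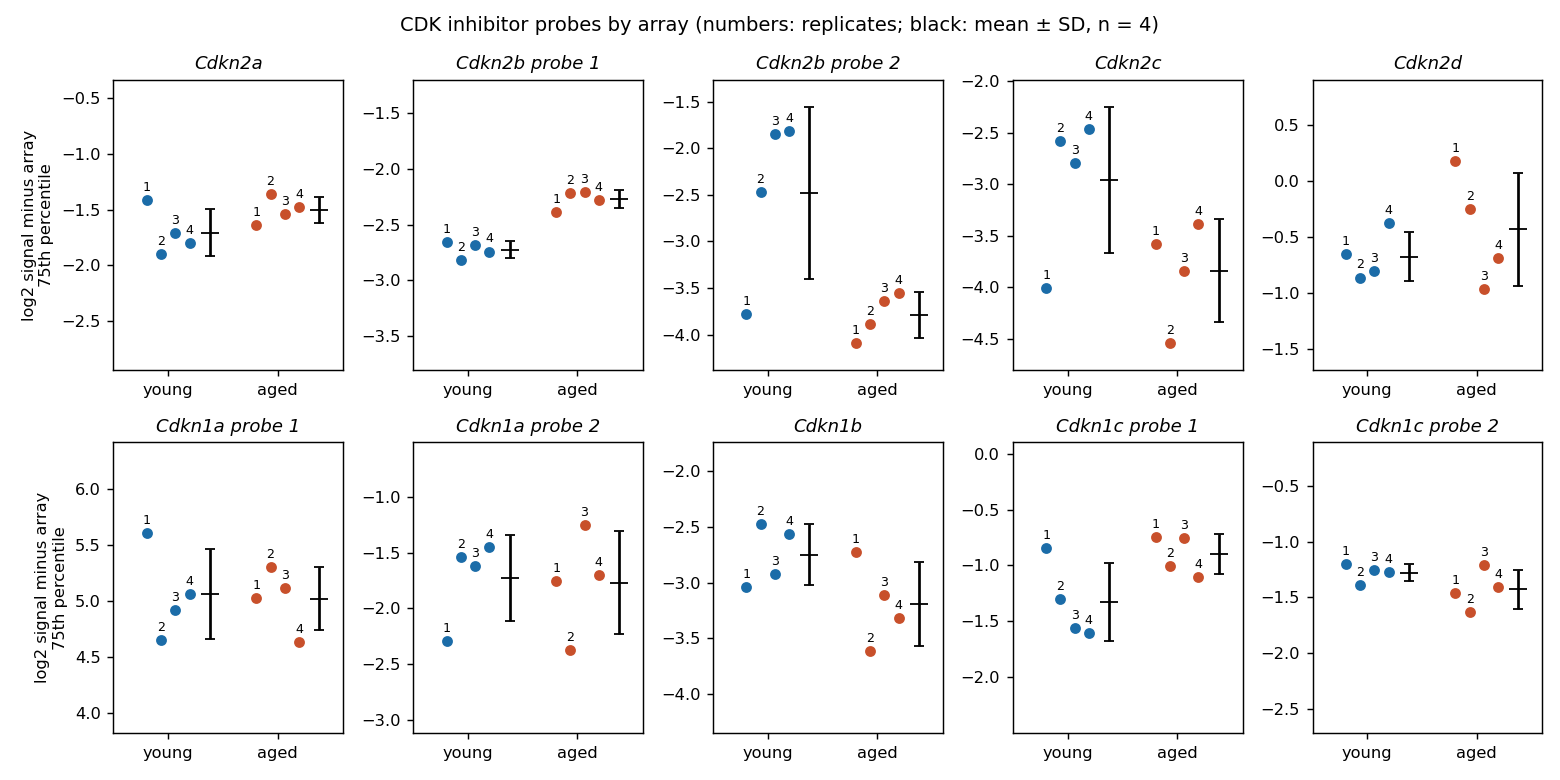
Values of the 10 CDK inhibitor probes on each array, as log2 processed signal minus the 75th percentile of the array (vertical axis). Young arrays are in blue and aged arrays in orange, with replicate numbers beside the points and the mean ± SD of 4 arrays in black. The vertical span is wider for the second Cdkn2b probe and for Cdkn2c than in the other panels, which share 1 span. The first probe of Cdkn2b sits higher on every aged array than on any young array, its second probe sits low on the aged arrays and on young replicate 1, and the groups overlap on the other probes.

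Cdkn2a was measured by 1 probe (A_64_P071770, 2 spots an array). Its log2 values were −1.42, −1.90, −1.71 and −1.80 on young replicates 1 to 4 and −1.64, −1.36, −1.54 and −1.48 on aged replicates 1 to 4, at signals of 106 to 188 intensity units. Young replicate 1 lay among the aged arrays, the other 3 young arrays lay below all aged arrays, and the groups overlapped. The difference was 0.20 ± 0.13 (SE, n = 4 per group, 95% interval −0.09 to 0.50, limma adjusted p = 0.298). Without young replicate 1 it was 0.30 with a limma adjusted p of 0.0475. With every probe tested on its own, again without that array, the limma adjusted p was 0.0507 and the probe did not pass. The files name 1 accession for the probe, and whether it reads the p16INK4a transcript, the ARF transcript or both was not determined here.

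Cdkn2b had 2 probes that name the same transcript and went in opposite directions. The first (A_42_P528537, 10 spots an array), which stood for the gene in the fit, read −2.65, −2.82, −2.68 and −2.74 on the young arrays and −2.39, −2.22, −2.21 and −2.28 on the aged arrays, at signals of 51.8 to 108. It stood for the gene because its mean over all 8 arrays, aged arrays included, was the higher. On the young arrays alone the second probe had the higher mean, −2.48 against −2.72. On the first probe every aged array was above every young array, with means of −2.72 ± 0.07 and −2.27 ± 0.08 (SD, n = 4 each). The groups overlapped with normexp correction, where the difference was 0.23, and also with no scaling and with spike-in scaling. The ratio of aged to young was 1.37-fold (95% interval of the log2 difference 0.23 to 0.67). The exact two-sided permutation test gave p = 0.0286, the smallest that 4 against 4 arrays allow. Groups that do not overlap always give this value, so it adds nothing to the separation. Over the 10 spots of an array the median SD was 0.116. Without young replicate 1 the difference was 0.47 (limma adjusted p = 0.00830).

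The second Cdkn2b probe (A_44_P313507, 2 spots an array) read −3.78, −2.46, −1.84 and −1.82 on the young arrays and −4.09, −3.88, −3.64 and −3.55 on the aged arrays, at signals of 19.4 to 140. Young replicates 2 to 4 were above all aged arrays, and young replicate 1 lay among the aged arrays. The group means were −2.48 ± 0.92 and −3.79 ± 0.24 (SD, n = 4 each), a difference of −1.31 ± 0.39 (SE, 95% interval −2.20 to −0.43). With every probe tested on its own, which called 64 of 11950 probes or 0.536%, the limma adjusted p of this probe was 0.0862. Without young replicate 1 the difference was −1.75 ± 0.20 (SE) with an adjusted p of 0.00300, in a fit that called 34.5% of the probes. With the mean of both probes in place of the first probe, Cdkn2b as a gene stood at −0.43 (limma adjusted p = 0.195), so the direction of the gene turned with the choice of probe.

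Cdkn2c (A_43_P13144, 2 spots an array), the p18 gene, read −4.01, −2.58, −2.79 and −2.47 on the young arrays and −3.58, −4.54, −3.84 and −3.39 on the aged arrays, at signals of 15.5 to 74.1. Young replicates 2 to 4 were higher than every aged array and young replicate 1 was lower than 3 of the 4 aged arrays. The means were −2.96 ± 0.71 and −3.84 ± 0.50 (SD, n = 4 each), which is a difference of −0.88 ± 0.36 (SE, 95% interval −1.70 to −0.06, limma adjusted p = 0.139) and an aged level 0.544 times the young one. Without young replicate 1 the difference was −1.23 and passed the test (limma adjusted p = 0.0114). The size depended on the background treatment at these low signals: with normexp correction it was −0.29.

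Cdkn2d (A_44_P444257, 1 spot an array), the p19INK4d gene, read −0.66, −0.86, −0.81 and −0.38 on the young arrays and 0.18, −0.25, −0.97 and −0.69 on the aged arrays. The aged arrays held both the highest and the lowest value, and the groups overlapped. The difference of 0.25 ± 0.24 (SE, n = 4 per group, 95% interval −0.29 to 0.78) had a limma adjusted p of 0.495, and it was 0.25 without young replicate 1, 0.040 without aged replicate 1 and 0.42 without aged replicate 3.

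**Figure D2:**
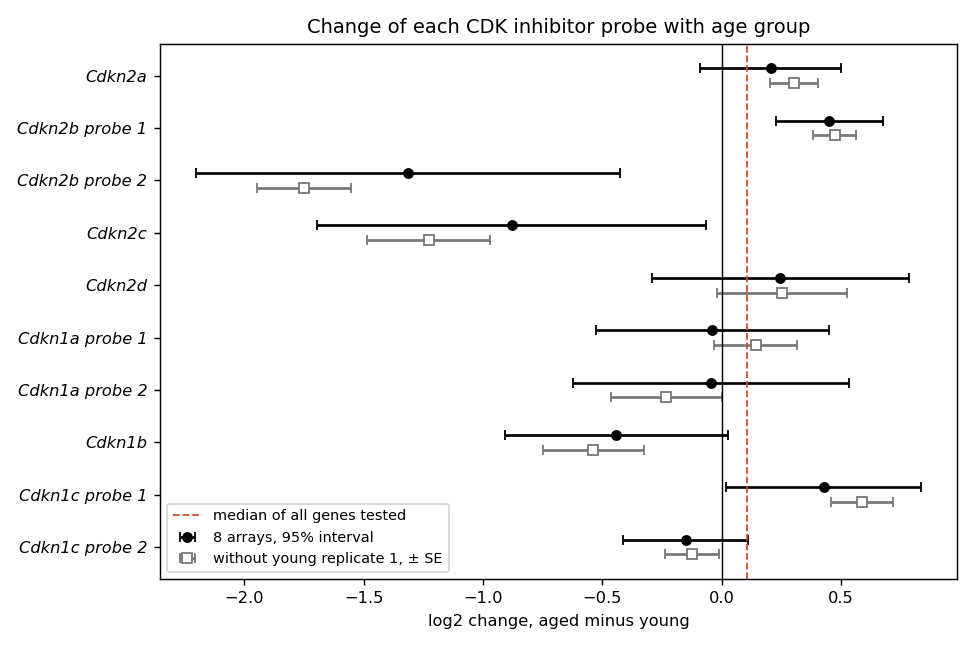
Log2 difference, aged minus young, of each CDK inhibitor probe (horizontal axis) from all 8 arrays (black, 95% interval of the probe-level fit) and without young replicate 1 (grey squares, ± SE), with the median of all genes tested as a dashed line. The 2 probes of Cdkn2b lie on opposite sides of 0, at 0.45 and −1.31, and Cdkn2c and Cdkn1b lie below 0.

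Of the CIP/KIP genes, Cdkn1a had 2 probes that name the same transcript, and neither separated the groups. The first (A_64_P123895, 2 spots an array) was among the bright probes of the array, at signals of 10132 to 15899, and read 5.61, 4.65, 4.92 and 5.06 on the young arrays and 5.03, 5.31, 5.12 and 4.63 on the aged arrays. The highest value was young replicate 1 and the lowest aged replicate 4. The difference was −0.04 ± 0.22 (SE, n = 4 per group, 95% interval −0.53 to 0.45, limma adjusted p = 0.914), and the interval allows a level lower by up to 0.53 or higher by up to 0.45. Its sign turned to 0.14 without young replicate 1, to 0.090 without aged replicate 4 and to 0.12 with median scaling. The second probe (A_44_P914438, 1 spot an array) read −2.29, −1.54, −1.62 and −1.45 on the young arrays and −1.75, −2.37, −1.25 and −1.70 on the aged arrays, with young replicate 1 and aged replicate 2 low. Its difference was −0.04 ± 0.26 (SE, probe-level limma adjusted p = 0.922), and −0.23 without young replicate 1.

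Cdkn1b (A_43_P11268, 10 spots an array) read −3.04, −2.48, −2.93 and −2.56 on the young arrays and −2.73, −3.61, −3.11 and −3.32 on the aged arrays, at signals of 29.4 to 72.4. Aged replicates 2, 3 and 4 were below every young array, and aged replicate 1 lay within the young range. The difference was −0.44 ± 0.21 (SE, n = 4 per group, 95% interval −0.91 to 0.03, limma adjusted p = 0.178), and without young replicate 1 it was −0.54 (adjusted p = 0.0820). The median SD over the 10 spots was 0.124, less than the spread between arrays. With normexp correction the difference shrank to −0.15.

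Cdkn1c, the p57 gene, which in many tissues is read from the maternal copy only, had 2 probes that carry different RefSeq accessions. The first (A_64_P165085, 2 spots an array) read −0.84, −1.30, −1.56 and −1.61 on the young arrays and −0.74, −1.0, −0.75 and −1.10 on the aged arrays. Young replicates 2 to 4 were below all aged arrays and young replicate 1 lay among them. The difference was 0.43 ± 0.18 (SE, n = 4 per group, 95% interval 0.02 to 0.84, limma adjusted p = 0.147), and without young replicate 1 it was 0.59 (adjusted p = 0.0132). The second probe (A_44_P374618) read −1.20, −1.39, −1.25 and −1.27 on the young arrays and −1.46, −1.63, −1.21 and −1.41 on the aged arrays, with the highest aged value, replicate 3, beside the young values. Its difference was −0.15 ± 0.12 (SE, probe-level limma adjusted p = 0.393; −0.12 without young replicate 1) and did not follow the first probe in sign. The first probe stood for the gene by its mean over all 8 arrays. On the young arrays alone the second had the higher mean, −1.28 against −1.33.

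The disagreement between probes was tested within arrays for the 3 genes with 2 probes, as the first probe minus the second. For Cdkn2b this log2 difference was 1.13, −0.35, −0.84 and −0.92 on young replicates 1 to 4 and 1.70, 1.67, 1.43 and 1.27 on aged replicates 1 to 4. All aged arrays were above all young arrays, and young replicate 1 was the nearest to them. The shift between groups was 1.76 (exact two-sided permutation p = 0.0286, 0.0857 after Benjamini-Hochberg adjustment over the 3 pairs). The unadjusted value follows from the separation of the groups. The Cdkn1c pair shifted by 0.58 (exact permutation p = 0.0571, adjusted 0.0857), and the Cdkn1a pair by 0.0043 (exact permutation p = 0.971). Among the 1564 tested genes with several probes, 25.3% had probes of opposite sign, and the median range of the log2 difference over the probes of a gene was 0.156. Only 4 genes, or 0.256%, had a range at least as wide as that of Cdkn2b. They were Cald1 with 2.13, Mical2 with 2.07, Crem with 1.91 over 4 probes and Cdkn2b itself, and the other 3 were named after their values were seen. A range wider than that of Cdkn1c was found in 7.54% of these genes and one wider than that of Cdkn1a in 97.6%.

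Spermatid and stromal marker lists, like the second Cdkn2b probe and Cdkn2c, were lower on young replicate 1 and on every aged array than on young replicates 2 to 4. Across all genes, too, young replicate 1 correlated better with the aged arrays (0.987) than with the other young arrays (0.966). The mean of 19 spermatid genes, each centred over the 8 arrays, was −0.50 on young replicate 1, between 0.55 and 1.07 on young replicates 2 to 4 and between −1.11 and −0.14 on the aged arrays. All 19 were lower in aged cells and 0 were called, with a median of −1.02, while without young replicate 1 18 of them were called, with a median of −1.28. The mean of 11 peritubular myoid and stromal genes ran from 1.05 to 1.22 on young replicates 2 to 4, was −0.59 on young replicate 1 and ran from −1.36 to −0.31 on the aged arrays. All 11 were lower, with a median of −1.55, and 1 of them, the pericyte proteoglycan Cspg4, was called, against all 11 without young replicate 1 (median −1.81). The mean of 11 macrophage genes was −0.52 on young replicate 1, between 0.53 and 1.03 on young replicates 2 to 4 and between −1.43 and 0.54 on the aged arrays, with 0 called and a median of −0.72 (4 called without young replicate 1). Over all genes, 36.9% were called without young replicate 1. In these lists Acrv1, Col3a1, Adgre1, Cd14 and Cd163 passed the filter through the young arrays alone. They were well above background on 3, 2, 3, 2 and 3 aged arrays, and add no support to the counts of lower genes. On the macrophage list aged replicate 4 stood at 0.54, beside young replicates 3 and 4 at 0.53. On the second Cdkn2b probe and on Cdkn2c aged replicate 4 was the highest aged array and lay below young replicates 2 to 4. It was also the highest aged array on the spermatid list, at −0.14. On the stromal list aged replicate 1 was the highest aged array, at −0.31, and aged replicate 4 stood at −0.69. Acta2, Myh11 and Des of muscle-like cells, Prm1, Tnp1 and Acr of spermatids and Csf1r and Cd68 of macrophages were well above background on all 8 arrays. Some other markers of these lists were not. Of the macrophage markers, Mrc1 was well above background on 3 young and 1 aged arrays and Itgam on none. Of the stromal markers, Cnn1 was so on 3 young and 0 aged arrays and Lum on none.

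Markers of spermatocytes, the cells in meiosis, separated the groups the way the first Cdkn2b probe did. Their centred mean over 18 genes ran from −0.38 to −0.26 on the young arrays, young replicate 1 included, and from 0.15 to 0.52 on the aged arrays. Of these 18, 7 rose (limma adjusted p = 0.0465 for each, among them Sycp3, Msh5 and Dmc1), 15 were higher and the median was 0.77. Pgk2 at −1.02 (adjusted p = 0.140), Ldhc at −0.94 (0.149) and Hspa2 at −0.39 (0.273), genes that stay on in later germ cells, were lower, and 16 of the 18 were called without young replicate 1. Undifferentiated spermatogonia genes spanned −0.02 to 0.24 on the young and −0.16 to −0.04 on the aged arrays, with 0 of 12 called. Differentiating spermatogonia genes overlapped between the groups, at −0.15 to 0.19 and −0.17 to 0.27, with 0 of 4 called. The Sertoli list ran from −0.36 to 0.23 on the young and from −0.14 to 0.19 on the aged arrays, with 1 of 9 called (Rhox5, which rose). Leydig genes ran from −0.74 to 0.57 and from −0.74 to 0.41 with 0 of 5 called. Of the Leydig markers, Insl3, Cyp17a1, Hsd3b1 and Hsd17b3 were well above background on all 8 arrays and Lhcgr on none. Cyp11a1 was well above background on 3 young and 4 aged arrays, Star on 1 young and 0 aged, and Nr5a1 on 0 young and 1 aged. Endothelial genes ran from 0.02 to 0.12 and from −0.23 to 0.01 with 0 of 4 called, and red cell genes from −0.98 to 0.46 and from −1.29 to 0.57 with 0 of 4 called. The undifferentiated spermatogonia and endothelial means thus also did not overlap between the groups, with the aged arrays lower. Over all genes tested, 14.3% had groups that did not overlap, in either direction. Leaving out young replicate 1, 2 undifferentiated spermatogonia genes, 3 Sertoli genes and 1 endothelial gene were called, and 0 of the differentiating, Leydig and red cell lists. The share called over all genes in that fit was 36.9%. In bulk RNA, fewer cells of a type and less RNA per cell cannot be told apart, and the part of these cell types in the CDK inhibitor values was not tested.

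**Figure D3:**
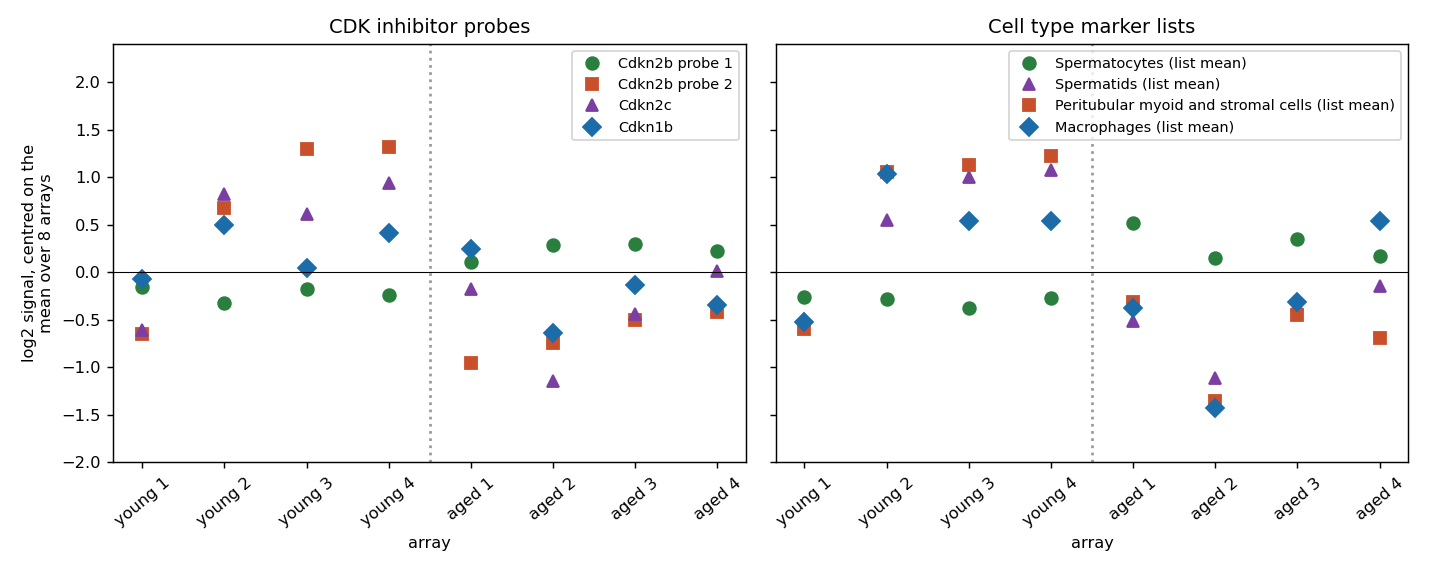
Left, log2 values of 4 CDK inhibitor probes, each centred on its mean over the 8 arrays (vertical axis), on young arrays (left of the dotted line) and aged arrays. Right, the centred means of 4 marker lists on the same scale. The second Cdkn2b probe and Cdkn2c are lower on young replicate 1 and on the aged arrays than on young replicates 2 to 4, as are the spermatid mean (behind the macrophage point on young replicate 1) and the myoid and stromal mean, while the first Cdkn2b probe and the spermatocyte mean are low on all 4 young arrays.

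The partners and regulators of the inhibitors were taken from fixed lists. Of 13 CDKs and cyclins the inhibitors bind, 9 were higher and 4 lower in aged cells, 0 were called and the median log2 difference was 0.11. Ccna1, the cyclin A of male meiosis, was nearest to the threshold at −1.54 (limma adjusted p = 0.0527), and its groups did not overlap. Ccnd2, a D-type cyclin of spermatogonia, stood at −0.79 (adjusted p = 0.0705) and Ccne1, a cyclin of the entry into DNA synthesis, at 0.34 (adjusted p = 0.0849). The INK4 targets themselves stood near 0, with Cdk4 at 0.01 (adjusted p = 0.957) and Cdk6 at −0.05 (adjusted p = 0.872), and their partner Ccnd1 stood at 0.15 (adjusted p = 0.483). Without young replicate 1, 5 of the 13 were called, beside 36.9% of all genes.

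Of the retinoblastoma family and E2F list, 9 of 13 genes were measured, 6 higher and 3 lower, with 0 called and a median of 0.02. Rb1, the retinoblastoma gene, stood at −0.12 (limma adjusted p = 0.607), its relative Rbl1 at 0.13 (0.578), the activator E2f3 at 0.40 (0.124) and the E2F partner Tfdp2 at 0.16 (0.411).

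Of 12 genes that act on p27 turnover or, as FOXO factors, on its transcription, 10 were tested, 5 higher and 5 lower, with a median of 0.06 and 0 called. Skp2, the ubiquitin ligase subunit that recognises p27, stood at −0.05 (limma adjusted p = 0.817), its cofactor Cks1b at 0.33 (0.120), Skp1 at 0.18 (0.272) and the importin Kpna6 at −0.52 (0.0782). Of 14 Polycomb genes, whose complexes silence the Cdkn2a and Cdkn2b locus in dividing cells, 11 were tested and 0 called, with 9 higher, 2 lower and a median of 0.14. Bmi1 stood at −0.48 (adjusted p = 0.129), Ezh1 at 0.28 (0.181) and Ezh2 at 0.19 (0.257). Of 10 genes of the TGF-beta and SMAD pathway, which induces Cdkn2b, 6 were tested, 3 higher and 3 lower, with a median of 0.04 and 0 called. The MYC partner Zbtb17, a repressor and activator at the Cdkn2b promoter, stood at 0.35 (adjusted p = 0.0871), the receptor Tgfbr1 at 0.37 (0.119) and Smad4 at 0.23 (0.183).

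Of 21 senescence markers and secreted factors 12 were tested, 4 higher and 8 lower, with a median of −0.11 and 0 called. The list joins secreted factors with other markers that need not move the same way in senescence. Its count and median therefore do not measure senescence. Il6, Il1a, Mmp3 and Igfbp5, all known as secreted factors of senescent cells, were not well above background on any array. Igfbp7, an insulin-like growth factor binding protein, stood at −1.13 (limma adjusted p = 0.149) and the chromatin protein Hmgb2 at 0.47 (0.0802). Igfbp7 passed the test without young replicate 1, at −1.66 (adjusted p = 0.00504). Of 20 proliferation genes 17 were tested, 15 higher and 2 lower, with a median of 0.15. Bub1, a kinase of the spindle checkpoint, rose by 0.64 ± 0.11 (SE, n = 4 per group, adjusted p = 0.0465), and no other gene of this list was called (5 without young replicate 1). Mki67 had no named probe. With young replicate 1 left out, 1 of the 9 retinoblastoma and E2F genes was called, 3 of the 10 p27 genes, 1 of the 11 Polycomb genes, 2 of the 6 TGF-beta and SMAD genes and 3 of the 12 senescence genes. The same fit called 36.9% of all genes.

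**Figure D4:**
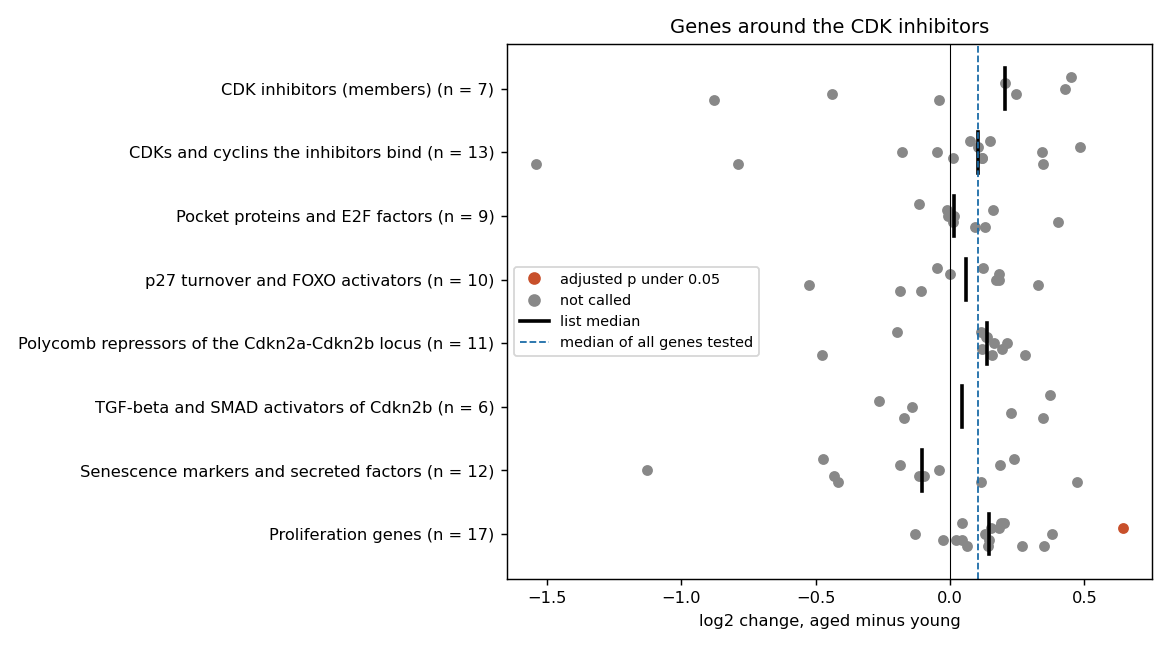
Log2 difference, aged minus young (horizontal axis), of every tested gene of the CDK inhibitors and of 7 lists around them, with black bars for list medians and a dashed line for the median of all genes tested. Bub1 among the proliferation genes is the only gene past the adjusted p of 0.05, and the list medians lie between −0.11 and 0.20.

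The profiles over the 8 arrays were also compared with those of all other tested genes, by the root mean square difference of log2 values after each was centred. This is a description over 8 arrays and 10233 genes. The first Cdkn2b probe had Nfkbib (0.059) and Tmed10 (0.060) among its 3 nearest genes. Its second probe, looked at after its values were seen, lay nearest to Adipoq (0.112), Rnpep (0.139) and Cep41 (0.167). Cdkn2a lay nearest to Creb5 (0.035), Eif5b (0.045) and Zfp622 (0.047). Cdkn2c lay nearest to Spata3 (0.119), RGD1309362 (0.141) and Habp4 (0.141), and Cdkn2d to Mgat2 (0.159), Acyp2 (0.165) and Magea4 (0.166). In the CIP/KIP family, Cdkn1a lay nearest to Tmem229b (0.087), Serpinb7 (0.090) and Sv2c (0.097), Cdkn1b to Tmem164 (0.126), Cbx6 (0.130) and Txnip (0.133), and Cdkn1c to Urb2 (0.104), Zfp800 (0.105) and Cdc14b (0.108). No gene stood among the nearest 3 of more than 1 of these probes.

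**Figure D5:**
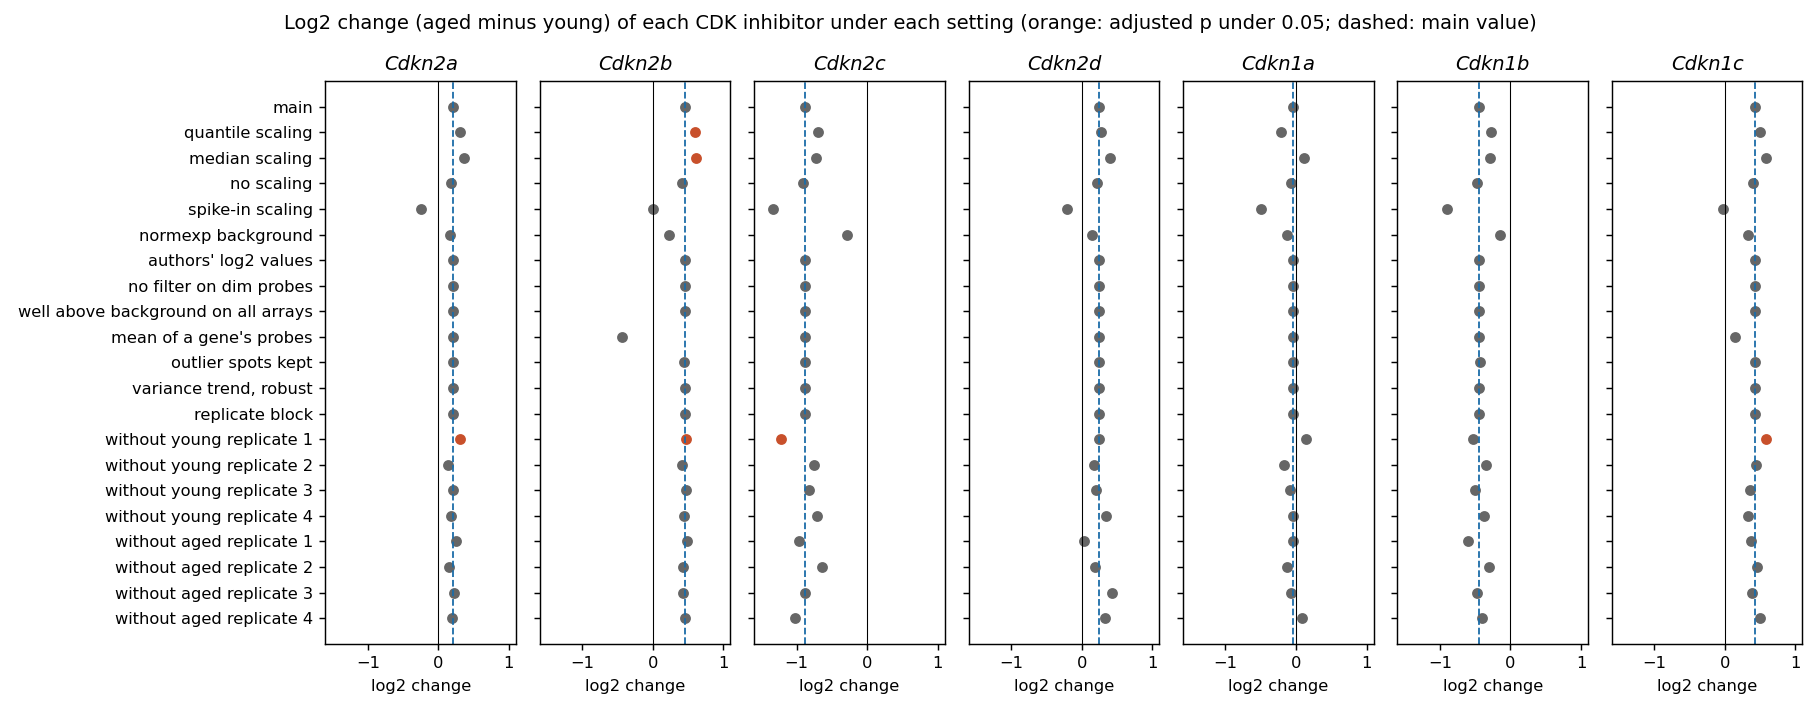
Log2 difference, aged minus young (horizontal axis), of each CDK inhibitor under the reported setting and 20 alternatives (vertical axis), orange where the adjusted p was under 0.05. Cdkn2b passes with quantile scaling, with median scaling and without young replicate 1, and turns below 0 with the mean of its probes and with spike-in scaling; Cdkn2a, Cdkn2c and Cdkn1c pass without young replicate 1.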

How the data were processed

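The data were one-colour Agilent rat arrays of CD9-positive testis cells, 4 young and 4 aged by the labelled age. Per the file headers, the deposited processed signal is an intensity from Agilent Feature Extraction 10.7.3.1 with background and a spatial trend subtracted and no scaling between arrays; per the submitters' processing notes the version is 12.5. Normexp used the deposited median signals of spot and local background, which are raw intensity values. Deposited columns mark spots as control, outlier, saturated or well above background. The authors' deposited series table holds log2 values of the same arrays, centred so that each probe's median is 0 (within 5e-07); against the scanner signals its slopes were 1 over 4308 bright probes. Its column medians ran from −0.14 to 0.09 on the young and from −0.02 to 0.07 on the aged arrays, and the scaling before centring was not stated. The design build rn4 is per the file headers; no coordinates of that build were used.

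Outlier spots and controls were dropped, spots of a probe averaged on the log2 scale, and each array's 75th percentile over the 30367 non-control probes subtracted. Of these probes, 17998 matched 15154 genes through the RefSeq table of GRCr8 and 12369 stayed unnamed. A probe was tested if 0.5 or more of its spots were flagged well above background on all arrays of 1 group or both, with at least 2 values per group, and the brightest probe stood for a gene. Aged and young arrays were compared by lmFit and eBayes of limma 3.58.1 (two-sided tests with 9.15 degrees of freedom after moderation) under R 4.3.3, files being read with jsonlite 2.0.0 and data.table (1.17.8), with Benjamini-Hochberg adjustment over all 10236 genes. Exact permutation tests ran over 70 assignments of the arrays. The fit was tested on simulated data.

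The members and lists were chosen with earlier results of these data known, and so were the tests. All members and their probes are named. Of each pathway list up to 4 called genes are named, or the 3 with the smallest p where none was called, with Cdk4, Cdk6, Ccnd1, Ccnd2, Rb1, Skp2 and Mki67 in every case, and the 3 tested genes nearest in profile to each member; some genes and 2 lists that this rule covers are not reported here. Alternatives covered scaling, background, filter, probe choice, outlier spots, the variance model, the replicate number as a block, the authors' log2 values and each array left out.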

Additional observations from a re-analysis of the deposited data

How the results depend on the processing

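Under 20 alternatives the 7 members gave 140 values of the log2 difference, of which 126 kept their direction and their side of the threshold, 6 newly passed it and 8 turned in sign. With quantile scaling 1 member was called, Cdkn2b at 0.60 (limma adjusted p = 0.0474). With median scaling, where the median gene stood at 0.26, 1330 genes and 1 member were called (80.2% of the genes higher, 76.1% in the reported fit), Cdkn2b stood at 0.61 (adjusted p = 0.0310) and Cdkn1a turned to 0.12. Spike-in scaling (4 probes above a signal of 100) called 958 genes, of which 0.626% were higher, and turned Cdkn1c to −0.025, Cdkn2a to −0.25, Cdkn2b to −0.00091 and Cdkn2d to −0.21. Normexp (offset 50) called 630 genes, 57.6% higher, and a variance trend with robust estimation 270. No genes were called without scaling (count 0, 1389 at an unadjusted limma p under 0.05) and with no filter on dim probes (0, 3339 unadjusted). The mean of a gene's probes turned Cdkn2b to −0.43. Leaving out each array gave 0 to 3776 called genes, 0 to 4 called members, and differences of −0.18 to 0.14 for Cdkn1a, 0.33 to 0.59 for Cdkn1c, 0.14 to 0.30 for Cdkn2a, 0.42 to 0.49 for Cdkn2b, 0.040 to 0.42 for Cdkn2d, −0.60 to −0.30 for Cdkn1b and −1.23 to −0.64 for Cdkn2c. The 3776 genes and 4 members were called without young replicate 1; 1 gene was called without young replicate 2 and 0 without each other array (1951 to 3009 at an unadjusted limma p under 0.05). The second Cdkn2b probe stood between −1.77 (spike-in) and −0.54 (normexp) under the scaling and background alternatives and with the authors' values, and at −1.75 without young replicate 1; it was not followed under the others. With every probe tested on its own, chosen after seeing the data, 64 of 11950 probes were called. The causes of these differences were not tested.

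With the replicate number as a block 0 genes were called (3231 at an unadjusted limma p under 0.05) and 0 members. Same-numbered arrays correlated at −0.26, −0.12, 0.44 and 0.35 in their deviations from the group means. No young array correlated best with the aged array of its own number. These few mixed values cannot tell whether same-numbered samples shared more than the number.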
